A study of Mus musculus with 6 samples.

Results

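The nuclear genes that encode subunits of respiratory complexes II, III, IV and V were followed in mouse bone marrow with and without the SNORD113-114 cluster, whose box C/D snoRNAs (small RNAs that guide chemical marks on other RNAs) lie in the imprinted Dlk1-Meg3 domain. The members were 39 genes chosen by symbol: 4 of complex II, 9 of complex III, 11 of complex IV and 15 of complex V, out of 47729 genes in the deposited count table. All 39 were found by Ensembl identifier and all 39 had enough reads to be tested, among 15686 genes that did. Libraries were made from poly(A) RNA of bone marrow cell extracts of 3 cluster KO and 3 wildtype mice and were not stranded. The labels state no sex, age, strain, form of the deleted allele or sorting of the cells.

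The respiratory chain sits in the inner mitochondrial membrane. Complex II (succinate dehydrogenase) passes electrons from succinate to ubiquinone, complex III passes them on to cytochrome c, and complex IV (cytochrome c oxidase) passes them to oxygen. Complex V (ATP synthase) uses the proton gradient that the chain builds to make ATP. Complexes III, IV and V mix subunits encoded in the nucleus with subunits encoded in mitochondrial DNA, whereas complex II is encoded in the nucleus alone. In bone marrow, hematopoietic stem cells are known for relying less on respiration than the dividing progenitors they give rise to.

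The libraries held between 17663369 and 23459168 counts on genes, and the members took 2.07 to 2.27% of them in cluster KO and 2.73 to 2.86% in wildtype. The lowest member count in any library was 1645, for Atp5g2, which gives a counting error of 2.47%. The series describes 3 mice of each genotype, and the n of each test is the library. The deletion could not be checked in poly(A) libraries at this depth: Rian, the host transcript of the region, had 9, 6 and 3 counts in cluster KO against 11, 5 and 38 in wildtype, and the 23 annotated snoRNA genes from Rian to Mirg had 0 counts in cluster KO and 1 in wildtype. Reads outside genes made up 7.29 to 10.1% of the reads in the cluster KO table columns and 10.03 to 11.1% in the wildtype columns, and rRNA genes took 0.614, 0.383 and 0.251% against 0.998, 1.08 and 1.44% of gene counts. Markers of marrow cell types were present in all libraries, and some lists differed. Of all genes tested, 12.1% were called lower and 15.9% higher. Every cluster KO library lay above every wildtype library in 22.9% of them, and below in 23.1%. Summed B lineage markers (8 of 10 called higher) ran from 2129 to 2300.1 CPM in cluster KO and from 712 to 773 CPM in wildtype, megakaryocyte markers (3 of 7 lower, 1 higher) from 283 to 290.1 against 426 to 525 CPM, erythroid markers (4 of 9 lower) from 4191 to 5219 against 5132 to 5541 CPM, and neutrophil markers (3 of 10 higher) from 10559.8 to 20028 against 6229.5 to 12025 CPM. Hematopoietic stem cell markers (4 of 9 higher, 1 lower) ran from 1181 to 1198 CPM in cluster KO and from 995 to 1042 CPM in wildtype, and monocyte and macrophage markers (1 of 8 higher) from 75.5 to 98.8 against 50.4 to 64.7 CPM, both without overlap. T and NK markers (1 of 8 higher) overlapped, at 361 to 476 against 344 to 452 CPM. Stromal and endothelial ones (1 of 3 tested higher) did too, at 42.8 to 133 against 20.1 to 56.9 CPM. The erythroid and neutrophil sums overlapped as well. In the monocyte and the T and NK lists, 1 of 8 called higher did not exceed the share of all genes. No marker was at 0 in all libraries, and the part of cell makeup or RNA quality in the results below was not tested.

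Most members were lower in cluster KO marrow, and the genes called in each direction were largely of different kinds of subunit. Kind of subunit went together with coding length in these genes, as given below. Of the 39 genes, 26 were lower, 5 were higher and 8 did not pass (edgeR quasi-likelihood test, Benjamini-Hochberg adjusted p under 0.05 over all genes tested). All 11 complex IV genes, the 5 small accessory genes of complex III and 10 of the complex V genes were lower, while both core protein genes of complex III, both genes of the catalytic head of ATP synthase and Sdhc of complex II were higher. Among all genes tested, 12.1% were called lower and 15.9% higher. With trends on transcript length and GC content removed, neither gene of the ATP synthase head was called. Atp5a1 was at 0.18 (edgeR adjusted p = 0.287) and Atp5b at 0.24 (0.177) in that fit. The values that follow are from the main fit. The 26 lower genes had log2 fold changes from -1.12 to -0.39 (adjusted p from 0.0021 to 0.0153) and the 5 higher genes from 0.49 to 1.03 (adjusted p from 0.00469 to 0.0412). The median over the 39 was -0.67, against 0.00 over all genes tested. In 27 members every cluster KO library lay below every wildtype library, as it did in 23.1% of all genes tested. In 6 members every cluster KO library lay above, as in 22.9% of all genes. In bulk RNA, fewer cells of a type and less RNA per cell cannot be told apart.

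**Figure D1:**
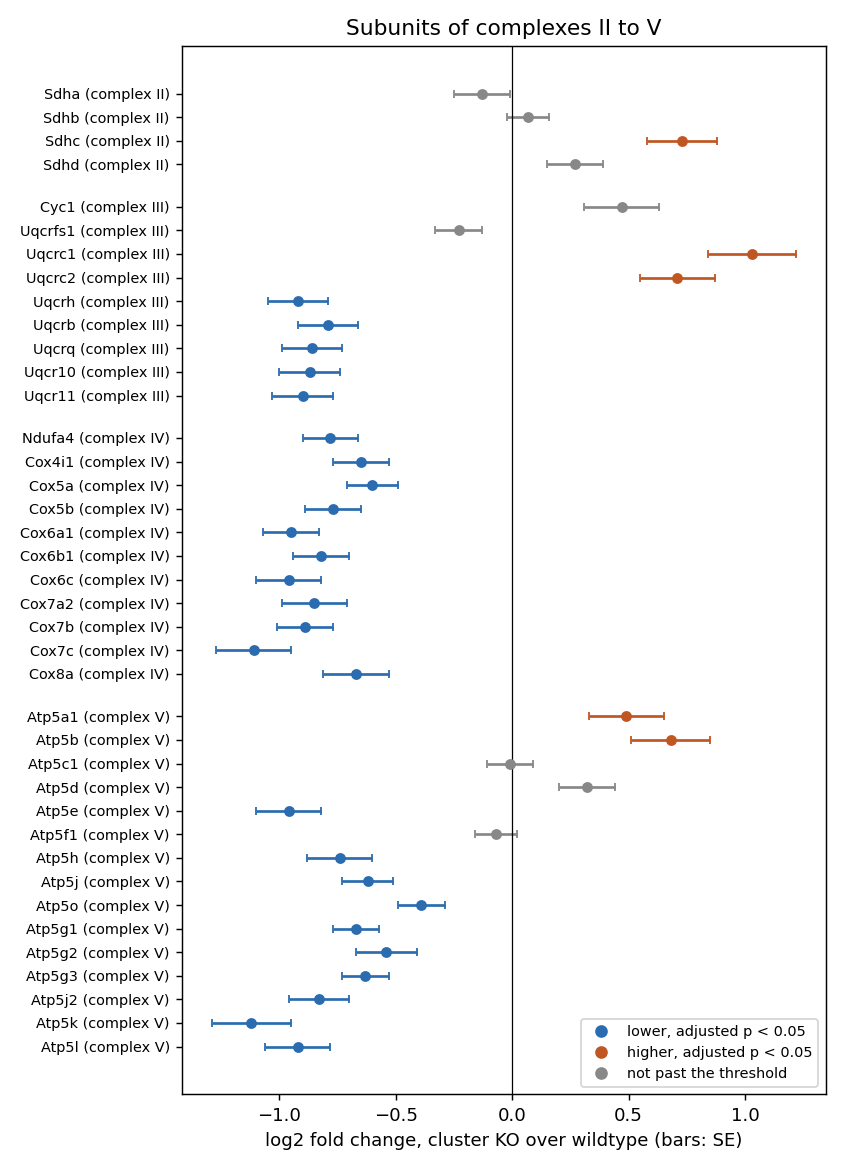
Log2 fold change of each of the 39 subunit genes in cluster KO over wildtype marrow, with the SE as a horizontal bar, grouped by complex; colour gives the edgeR call. Complex IV lies to the left of 0 throughout, from -1.11 to -0.60. In complexes III and V the genes called lower have up to 639 coding bases and those called higher are large. Others, among them Uqcrfs1, Atp5c1 and Atp5f1, are not called in either direction.

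Complex II was the complex with no gene called lower. Sdha encodes the flavoprotein that oxidises succinate and was at 255, 291 and 332 CPM in cluster KO and 324, 312 and 325 CPM in wildtype (CPM are counts scaled to a common library size by TMM). Its groups overlapped, and its log2 fold change was -0.13 (SE 0.12, edgeR adjusted p = 0.427). Sdhb, the iron-sulphur subunit, was at 617, 643 and 649 CPM against 641, 612 and 568 CPM (0.07, SE 0.09, edgeR adjusted p = 0.62), also with overlap. Sdhc and Sdhd encode the membrane anchor that binds haem and ubiquinone. Sdhc rose, at 195, 202 and 254 CPM against 157, 121 and 115 CPM, with all cluster KO libraries above all wildtype ones (log2 fold change 0.73, SE 0.15, edgeR adjusted p = 0.00832). Sdhd was at 722, 732 and 828 CPM against 718, 637 and 538 CPM, without overlap but short of the threshold (0.27, SE 0.12, edgeR adjusted p = 0.12). The median of the 4 genes was 0.17. With trends on transcript length and GC content removed, that median was -0.03, Sdha was called lower (-0.29, adjusted p = 0.0381) and Sdhc stayed higher at 0.62.

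Complex III divided by subunit class. Its 5 small accessory genes all fell, with log2 fold changes between -0.92 and -0.79. Uqcrh, the acidic hinge protein that helps cytochrome c1 meet cytochrome c, was at 476, 393 and 353 CPM in cluster KO and 703, 747 and 867 CPM in wildtype (-0.92, SE 0.13, edgeR adjusted p = 0.00251). Uqcr11 was at 795, 658 and 579 CPM against 1162, 1209.6 and 1427 CPM (-0.90, SE 0.13, edgeR adjusted p = 0.00261). In both, the lowest wildtype library stood well above the highest cluster KO library. Uqcr10 was at 409.5, 329.8 and 298 CPM against 585, 629 and 681 CPM (-0.87, SE 0.13). Uqcrq and Uqcrb, which lie next to cytochrome b in the complex, changed by -0.86 and -0.79, and neither overlapped between the groups.

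The large matrix-facing core proteins of complex III went the other way. Uqcrc1 was at 748, 897 and 1062 CPM in cluster KO and at 536, 466 and 322 CPM in wildtype, the largest rise among the 39 genes (log2 fold change 1.03, SE 0.19, edgeR adjusted p = 0.00469). Uqcrc2 was at 205, 252 and 308 CPM against 181, 150.1 and 136 CPM (0.71, SE 0.16, edgeR adjusted p = 0.0114). Neither gene overlapped between the groups, although cluster KO 1 and wildtype 1 stood closest to each other in both. The genes of the electron-carrying subunits did not pass. Cyc1, cytochrome c1, was at 509, 586 and 642 CPM against 509.9, 418 and 323 CPM, just short of the threshold (0.47, SE 0.16, edgeR adjusted p = 0.0501). Uqcrfs1, the Rieske iron-sulphur protein, was at 381, 392 and 391 CPM against 504, 439 and 428 CPM, without overlap and lower in every cluster KO library (-0.23, SE 0.10, edgeR adjusted p = 0.108). Uqcrc2 missed the threshold without wildtype 2 (edgeR adjusted p = 0.0553) or wildtype 3 (0.0564), within a range of 0.000428 to 0.101 over all alternatives. With length and GC trends removed, Uqcrc1 was at 0.59 (adjusted p = 0.0146), Uqcrc2 at 0.53 (0.0329), Cyc1 at 0.01 and Uqcrfs1 at -0.43 (0.00541), while the 5 accessory genes ran from -0.94 to -0.30 and all still passed. The -0.94 belonged to Uqcrq, which that fit took at a transcript length of 963 bases for 246 coding bases.

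Every nuclear complex IV gene on the list fell. These genes encode small subunits that surround the mitochondrially encoded catalytic core of cytochrome c oxidase. Cox6a1 had the smallest p of all 39 members and was at 843, 695 and 643 CPM in cluster KO and 1276, 1354 and 1569 CPM in wildtype (log2 fold change -0.95, SE 0.12, edgeR adjusted p = 0.0021). Cox7b, on the X chromosome, was at 498, 409.6 and 375 CPM against 742, 761 and 867 CPM (-0.89, SE 0.12, edgeR adjusted p = 0.00248). Cox6b1, which contacts cytochrome c on the intermembrane side, was at 757, 632 and 566 CPM against 1101, 1121 and 1218 CPM (-0.82, SE 0.12, edgeR adjusted p = 0.00252). In each of these, every cluster KO library lay below every wildtype library, and the same held for the other 8 genes. Cox4i1, the largest nuclear subunit and the site of allosteric control by ATP, was at 1187, 1013 and 875 CPM against 1539, 1583 and 1708 CPM (-0.65, SE 0.12, edgeR adjusted p = 0.00464).

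The size of the complex IV falls was similar from gene to gene. The smallest was in Cox5a (-0.60, SE 0.11) and the largest in Cox7c (-1.11, SE 0.16), with a median of -0.82. Cox6c (-0.96), Cox7a2 (-0.85), Ndufa4 (-0.78), Cox5b (-0.77) and Cox8a (-0.67) lay between them. Ndufa4 was first described as part of complex I and is counted here with complex IV. Summed over the 11 genes, complex IV took 6762, 5572 and 4973 CPM in cluster KO and 9432, 9802 and 10996 CPM in wildtype. All 11 calls held without any single library, under every scaling tried and with length and GC trends removed, where the values ran from -0.72 to -0.34.

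**Figure D2:**
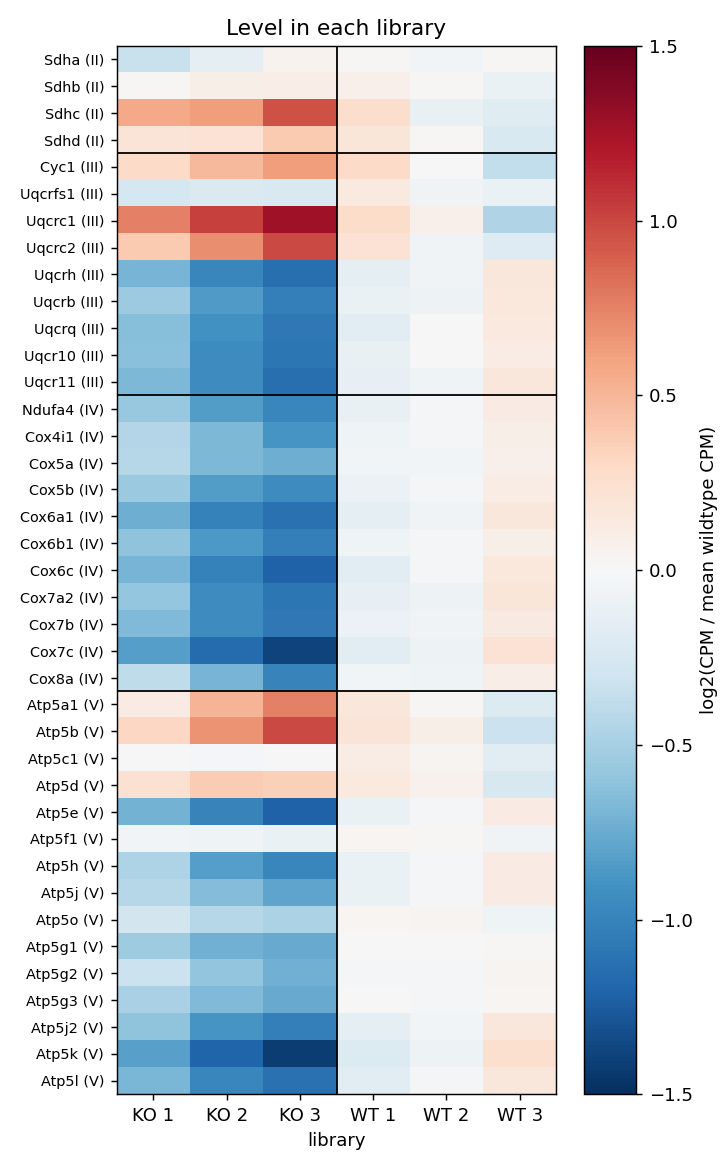
Level of each gene in each library as log2 of its CPM over the mean wildtype CPM (blue lower, red higher; KO, cluster KO; WT, wildtype). Complex IV is blue in all 3 cluster KO columns, palest in KO 1, and Uqcrc1, Uqcrc2, Sdhc and Atp5b are red in the same columns.

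ATP synthase showed the same division. Its F1 head is built of alpha and beta subunits, of which beta carries the catalytic sites. Atp5b (beta) was at 1699, 2179 and 2722 CPM in cluster KO and 1562, 1453 and 1098 CPM in wildtype, without overlap (log2 fold change 0.68, SE 0.17, edgeR adjusted p = 0.0175). Atp5a1 (alpha) was at 981, 1284 and 1520.1 CPM against 1008, 912 and 778 CPM (0.49, SE 0.16, edgeR adjusted p = 0.0412). Its groups overlapped, since cluster KO 1 lay just under wildtype 1. Atp5a1 missed the threshold without cluster KO 2, cluster KO 3, wildtype 1, wildtype 2 or wildtype 3 (edgeR adjusted p from 0.0512 to 0.151), and Atp5b without cluster KO 2, cluster KO 3, wildtype 2 or wildtype 3 (0.0524 to 0.0729). Over all alternatives the adjusted p ran from 0.00343 to 0.439 for Atp5a1 and from 0.00178 to 0.317 for Atp5b. With length and GC trends removed they were at 0.18 (adjusted p = 0.287) and 0.24 (0.177). Reads of Atp5a1 and of the overlapping gene Haus1 on the other strand cannot be told apart in their shared stretch.

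The central stalk of F1 turns inside the head, and its 3 genes differed among themselves. Atp5e (epsilon) fell, at 272, 222 and 192 CPM against 412, 434 and 482 CPM (-0.96, SE 0.14, edgeR adjusted p = 0.00252). Atp5d (delta) was at 343, 382 and 374 CPM against 324, 307 and 248 CPM, all cluster KO libraries above but short of the threshold (0.32, SE 0.12, edgeR adjusted p = 0.0722). Atp5c1 (gamma) was at 877, 858 and 865 CPM against 942, 898 and 772 CPM, with overlap (-0.01, SE 0.10, edgeR adjusted p = 0.966).

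The peripheral stalk holds the head still against the turning rotor. Of its 4 genes, Atp5h (-0.74, SE 0.14), Atp5j (-0.62, SE 0.11) and Atp5o (-0.39, SE 0.10) fell, and Atp5f1 (subunit b) was at -0.07 (SE 0.09, edgeR adjusted p = 0.583) with overlapping groups. Atp5o missed the threshold without cluster KO 2 (edgeR adjusted p = 0.0842), wildtype 1 (0.0529) or wildtype 2 (0.0791), within a range of 0.0038 to 0.0842 over all alternatives. The small membrane subunits that hold ATP synthase dimers together also fell. Atp5l (subunit g) was at 223, 182 and 165 CPM against 323, 351 and 404 CPM (-0.92, SE 0.14, edgeR adjusted p = 0.00278), Atp5j2 changed by -0.83 (SE 0.13) and Atp5k (subunit e) by -1.12 (SE 0.17). Atp5k, named here after its values were seen, had the largest fall of the 39 genes, at 167, 127 and 109 CPM against 254, 278 and 345 CPM. With length and GC trends removed, the 10 lower genes of complex V were at -0.90 to -0.30, all still called, and Atp5f1 was called lower at -0.37 (adjusted p = 0.00653). The -0.90 belonged to Atp5g1, which that fit took at 2675.5 bases although its shortest principal transcript has 596.

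The c ring is the proton-driven rotor, and Atp5g1, Atp5g2 and Atp5g3 encode the same mature c subunit behind different import sequences. All fell. Atp5g1 was at 505, 443 and 433 CPM in cluster KO and 728, 731 and 739.6 CPM in wildtype (-0.67, SE 0.10, edgeR adjusted p = 0.0026), Atp5g3 changed by -0.63 (SE 0.10) and Atp5g2 by -0.54 (SE 0.13). Atp5g2 missed the threshold without cluster KO 2 (edgeR adjusted p = 0.0756), wildtype 2 (0.0572) or wildtype 3 (0.0569), within a range of 0.00221 to 0.136 over all alternatives. Their shares of the c subunit counts were then compared. Per kilobase of the shortest principal transcript, Atp5g3 gave 57.3 ± 0.35% (SD, n = 3) of their summed counts in cluster KO and 57.0 ± 0.34% in the wildtype libraries (two-sided exact permutation p = 0.6). Atp5g1 gave 34.1 ± 0.56% against 34.9 ± 0.34% (exact permutation p = 0.2) and Atp5g2 8.63 ± 0.41% against 8.09 ± 0.12% (exact permutation p = 0.1, the smallest that 3 against 3 libraries allow). Leaving out 1 library at a time gave differences, cluster KO minus wildtype, of -1.14 (without cluster KO 3) to -0.641 (without wildtype 2) percentage points for Atp5g1, 0.328 (without cluster KO 1) to 0.73 (without cluster KO 3) for Atp5g2 and 0.0772 (without cluster KO 2) or 0.0795 (without wildtype 2) to 0.412 (without cluster KO 3) for Atp5g3. The shares also depend on the length used, since principal transcripts of Atp5g1 are annotated at 596 bases and longer. With the median length of 2675.5 bases its share was 10.7 ± 0.23% (SD, n = 3) against 11.0 ± 0.15%, and that of Atp5g3 80.2 ± 0.29% against 80.4 ± 0.21%.

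Size of the encoded protein went with the direction of change. Coding length, without the stop codon, ran from 156 to 639 bases in the 26 lower genes and from 507 to 1659 bases in the 5 higher ones. All 14 members with under 300 coding bases were lower, and 11 of 14 with 300 to 600 bases were lower and 1 was higher. Of 6 members from 600 to 1200 bases 1 was lower and 0 were higher, and of 5 members of 1200 bases or more 4 were higher and 0 lower. The exceptions below 600 bases were Sdhc and Sdhd of complex II and Atp5d. Across the 39 genes, which share the same 6 libraries, log2 fold change and log2 coding length had a Pearson correlation of 0.83 (Spearman 0.88). Over 12798 tested protein-coding genes the values were -0.12 and -0.17.

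The genes outside the list showed part of the same dependence. Of 278 other tested protein-coding genes with under 300 coding bases, 40.6% were lower and 6.83% higher, with a median log2 fold change of -0.35 against -0.88 in the members. Of 1462 others with 300 to 600 bases 21.8% were lower, with a median of -0.05 against -0.64 in the members. In the range from 600 to 1200 bases 7.09% of 3806 others were lower and 29.5% higher. At 1200 bases or more, 12.3% of 7213 others were lower and 13.7% higher. The bins were chosen after the values were seen, and how far length itself accounts for the members' changes was not tested beyond the fit with length and GC trends removed.

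**Figure D3:**
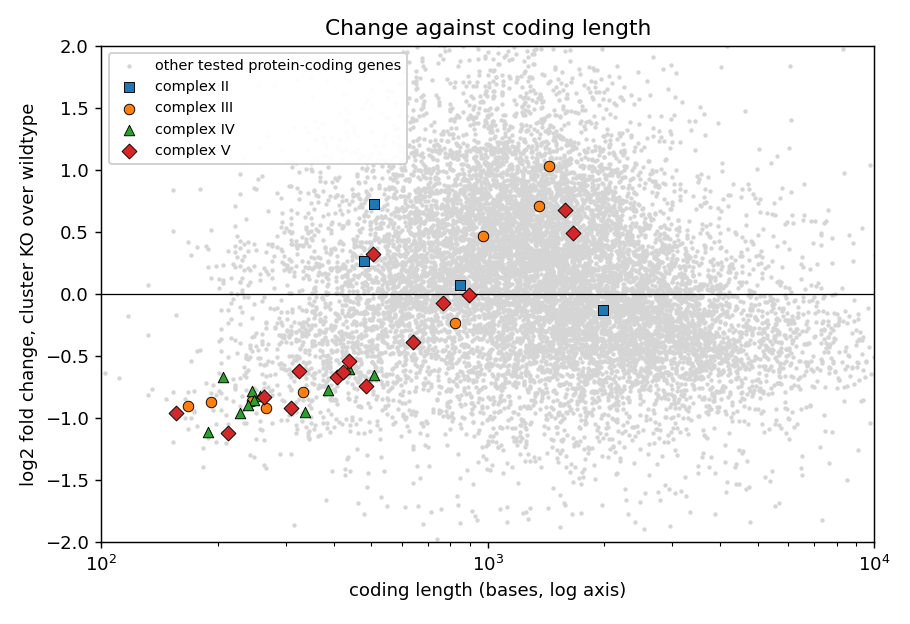
Log2 fold change in cluster KO over wildtype against coding length in bases (log axis) for the 39 subunit genes by complex and for other tested protein-coding genes in grey; 251 of 12759 grey genes lie outside the axes. Short subunit genes sit near -0.9 and the longest ones mostly above 0.

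Ratios between subunits of 1 complex do not depend on library scaling. The pairs were chosen after the values were seen, and since the ratios are of raw counts, not per length, their absolute size has no stoichiometric meaning. Uqcrc1 to Uqcrh counts stood at 1.57, 2.28 and 3.01 in cluster KO and 0.762, 0.624 and 0.371 in wildtype, a log2 difference of 1.98. Atp5b to Atp5e counts stood at 6.25, 9.83 and 14.2 against 3.79, 3.35 and 2.28, a log2 difference of 1.64. The groups did not overlap in either ratio (exact permutation test, two-sided p = 0.1 for each, the smallest possible). That outcome was fixed by the choice of pairs. Uqcrc1 and Atp5b already lay above wildtype in every cluster KO library, and Uqcrh and Atp5e below, so the test lends no support. Within each genotype the library with the lowest share of reads outside genes had the highest of both ratios: cluster KO 3 at 7.29% and wildtype 1 at 10.03%. Cluster KO 1, with 10.05% of reads outside genes, had ratios above those of wildtype 1. The choice of pairs had fixed that outcome too, so it lends no support either. The comparison sets 1 library against 1. These libraries also differed in rRNA share (0.614 against 0.998%) and in reads with multiple alignments (14.7 against 16.1%). The average level of the 26 lower genes relative to wildtype was -0.58, -0.85 and -1.0 (log2) in cluster KO 1, 2 and 3 and -0.10, -0.04 and 0.12 in wildtype 1, 2 and 3. Within a genotype these levels ranked as the reads outside genes did, and the part of read distribution in the changes was not tested.

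**Figure D4:**
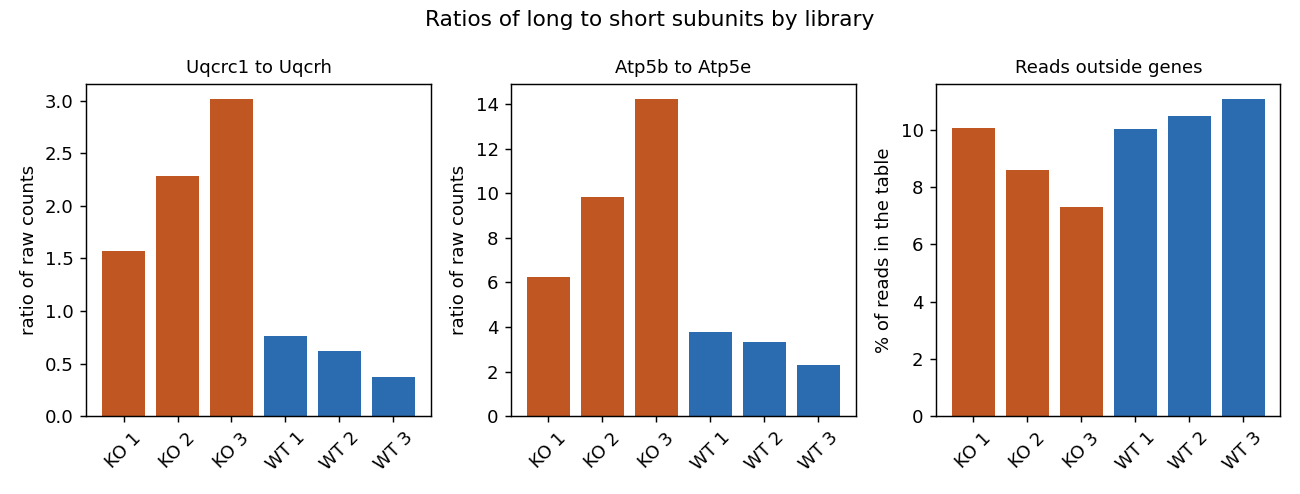
Ratio of raw counts of Uqcrc1 to Uqcrh and of Atp5b to Atp5e in each library, and the share of reads outside genes as a percentage of all reads in the table (orange, cluster KO; blue, wildtype). Each bar is 1 library; the lowest cluster KO ratios, 1.57 and 6.25, are above the highest wildtype ratios, 0.762 and 3.79.

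Genes that build or accompany these complexes were examined by lists. Of 78 tested genes on 8 lists, 24 were lower and 10 higher, with a median of -0.03. Among all genes tested 12.1% were lower and 15.9% higher, so the 10 higher genes did not exceed that share. The counts in each list below stand beside the same shares. Of the complex IV assembly factors 9 of 20 tested were lower, 0 were higher and 11 did not pass, with a median of -0.30, beside -0.82 for its subunits. Cox17, which delivers copper to cytochrome c oxidase, was at 98.3, 80.8 and 66.1 CPM in cluster KO and 169, 163 and 215 CPM in wildtype (log2 fold change -1.16, SE 0.17, edgeR adjusted p = 0.0026). Cmc1 (-0.64), Cmc2 (-0.52) and Cox14 (-0.54) had the next smallest p. The other lower genes were Cox20 (-0.72), Pet100 (-0.68), Cox16 (-0.63), Coa6 (-0.63) and Coa5 (-0.37). Cox20 was at -0.20 with length and GC trends removed and no longer called (edgeR adjusted p = 0.473). The haem A synthesis genes Cox10 and Cox15 did not pass, at 0.15 and -0.03 (edgeR adjusted p = 0.492 and 0.897). Among alternative complex IV isoforms 1 of 5 tested was lower: Cox6b2, known as the testis form of subunit 6B, at 97.2, 86.2 and 84.8 CPM against 197, 202 and 206 CPM (-1.18, SE 0.11, edgeR adjusted p = 0.000471). Cox8b and Cox8c had 0 counts in all libraries.

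Of the complex II assembly genes 1 of 4 was lower, Sdhaf4 (-0.62, SE 0.13), with a list median of -0.15. Of those for complex III 2 of 6 were lower, Uqcc2 (-0.72, SE 0.13) and Uqcc3 (-0.56, SE 0.14), and 1 was higher, Uqcc1 (0.71, SE 0.20), with a median of -0.13. Uqcc1, with length and GC trends removed, was at 0.44 and no longer called (edgeR adjusted p = 0.0841), while Sdhaf4 (-0.33), Uqcc2 (-0.42) and Uqcc3 (-0.50) stayed lower. In the complex V list 2 of 6 tested were lower, 1 was higher, and the median was 0.26. Atpif1, the inhibitor that stops ATP synthase from running in reverse, was at 1069, 882 and 807 CPM in cluster KO and 1781, 1986 and 2219 CPM in wildtype (-1.12, SE 0.12, edgeR adjusted p = 0.00113). Its lowest wildtype library was far above its highest cluster KO library. Usmg5, a small subunit of the synthase, fell (-0.94, SE 0.15), and Atpaf2, a chaperone for the alpha subunit, rose (0.96, SE 0.16). Both were still called with length and GC trends removed, at -0.36 and 0.50.

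Electron carriers and exchange genes split, with 3 of 18 lower, 7 higher and a median of 0.34. The 3 lower genes were close to the 12.1% of all genes tested that were lower, and 15.9% of all genes were higher. Cytochrome c (Cycs) fell, at 318, 278 and 271 CPM against 404, 402 and 449 CPM (-0.53, SE 0.11, edgeR adjusted p = 0.0068), and so did the phosphate carrier Slc25a3 (-0.41, SE 0.09) and Etfb (-0.45, SE 0.11). The ADP/ATP carriers Slc25a4 (0.40, SE 0.12) and Slc25a5 (0.44, SE 0.11) rose. Slc25a5 stayed higher with length and GC trends removed, at 0.31, and Slc25a4 was at -0.03 (edgeR adjusted p = 0.851). Dhodh, which feeds electrons from pyrimidine synthesis to ubiquinone, rose (0.93, SE 0.15; 0.47 with length and GC trends removed, still called). Of 7 ubiquinone synthesis genes, Coq6 (0.89, SE 0.19), Coq5 (0.91, SE 0.20), Coq4 (1.05, SE 0.24) and Coq9 (0.63, SE 0.19) rose, and Coq2 (0.22), Coq3 (0.33) and Coq7 (-0.07) did not pass. None of the 4 rises was called with length and GC trends removed, where they were at 0.39, 0.48, 0.61 and 0.11.

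Of the mitochondrially encoded partners 1 of 5 tested was lower, and the median was -0.13. Cytochrome b of complex III (mt-Cytb) was at 3976, 3768 and 3763 CPM against 4558, 4267 and 3807 CPM (-0.13, SE 0.09, edgeR adjusted p = 0.277), and mt-Co1, the catalytic subunit of complex IV, at 3566, 3160.0 and 2941 CPM against 3681, 3415 and 3165 CPM (-0.09, SE 0.10, adjusted p = 0.541). The groups overlapped in both. Of the ATP synthase partners, mt-Atp6 fell (-0.72, SE 0.18, edgeR adjusted p = 0.017; -0.13 with length and GC trends removed, adjusted p = 0.443) and mt-Atp8 was at 0.05 (SE 0.11, adjusted p = 0.769). These genes overlap in the mitochondrial genome, so their counts are uncertain: mt-Atp6 held 831 to 1781 counts and mt-Atp8 11559 to 16967. mt-Co3 counts were near the floor, at 0.63 to 1.59 CPM (-0.50, SE 0.52, edgeR adjusted p = 0.504), and mt-Co2 had too few counts to test. Libraries held 15 to 31 counts of mt-Co3 and 3 to 10 of mt-Co2, beside 60419 to 81479 of mt-Co1. Reads with more than 1 alignment are not assigned to genes, and their part in these low counts was not tested.

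Among 14 regulators of respiratory genes 5 were lower and 1 was higher, with a median of -0.32. The partner chains of the ETS factor GABPA were called in opposite directions: Gabpb1 rose (0.91, SE 0.15, edgeR adjusted p = 0.00362) and Gabpb2 fell (-0.73, SE 0.23, edgeR adjusted p = 0.0415). Pprc1, a coactivator of the PGC-1 family, fell (-0.93, SE 0.21, edgeR adjusted p = 0.00995), as did Sp1 (-0.61, SE 0.15), Yy1 (-0.71, SE 0.18) and the mitochondrial RNA polymerase gene Polrmt (-0.85, SE 0.26). With length and GC trends removed Gabpb2 (-0.47, edgeR adjusted p = 0.0806) and Polrmt (-0.68, 0.0569) were no longer called, and Sp1 (-0.37) and Yy1 (-0.46) still were. Nrf1 (0.13), Gabpa (0.00) and Tfam (-0.04) did not pass (edgeR adjusted p = 0.524, 0.999 and 0.842).

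Over the 8 lists, leaving out some single library ended 20 of the 34 calls. Without cluster KO 2, 19 calls were lost, among them Uqcc1, Uqcc3, Cmc1, Slc25a3, Slc25a4, Slc25a5, Etfb, Coq5, Coq9, mt-Atp6, Pprc1, Sp1, Yy1, Polrmt and Gabpb2 (edgeR adjusted p from 0.0504 to 0.134 over the 19). Without wildtype 3, 13 were lost, including Uqcc1, Uqcc3, Slc25a4, Slc25a5, Coq9, mt-Atp6, Sp1, Yy1, Polrmt and Gabpb2, and without wildtype 2, 12, including Uqcc1, Cox14, Slc25a4, Slc25a5, Etfb, Coq9, Sp1, Polrmt and Gabpb2. Without cluster KO 3, 5 were lost, including Uqcc1, Slc25a4, Coq9 and Polrmt, and without wildtype 1, 4 were lost: Etfb, Slc25a4, Polrmt and Gabpb2. The calls of Cox17, Cox6b2, Atpif1, Cycs, Dhodh, Atpaf2 and Gabpb1 held without any single library.

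The promoter windows of the members were read from RefSeq (GRCm38.p6), 250 bases before to 50 after an annotated start, and 31 of the 39 genes had an entry. Nuclear respiratory factor 1 (NRF1) and GABPA are the textbook activators of respiratory genes. The NRF1 motif, GCGCA followed by any base (N) and GCGC, on either strand, were present in 29.4% of 34 member windows and in 4.6% of all 32851 windows. The ETS letters CCGGAAG, which GABPA and other ETS factors recognise, were present in 35.3% of member windows and 8.86% of all windows. The YY1 letters AAGATGGC were in 8.82% against 2.75%, and the SP1 letters GGGGCGGGG in 14.7% against 11.4%. Members with NRF1 letters numbered 10, of which 6 were lower, 1 was higher and 3 did not pass. Members with ETS letters numbered 12, of which 10 were lower, 0 were higher and 2 did not pass. The 31 genes with a window comprised 22 lower, 2 higher and 7 that did not pass. A match describes the letters of the window and is not a test of binding.

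The windows of 3 lower genes and of the gene with the largest rise are shown because they hold these letters in different combinations. Each is printed 5′ to 3′ on the strand of the gene, with NRF1 and ETS matches on either strand in capitals. Cox6a1 (chr5:115348909-115349208, minus strand) holds 2 NRF1 matches and 1 ETS match. Atp5k (chr5:108434350-108434649, minus strand) holds 1 of each. Uqcrh (chr4:116075021-116075320, minus strand) holds 1 ETS match. Uqcrc1 (chr9:108936398-108936697, plus strand) holds 2 NRF1 matches, both after the annotated start.
Cox6a1: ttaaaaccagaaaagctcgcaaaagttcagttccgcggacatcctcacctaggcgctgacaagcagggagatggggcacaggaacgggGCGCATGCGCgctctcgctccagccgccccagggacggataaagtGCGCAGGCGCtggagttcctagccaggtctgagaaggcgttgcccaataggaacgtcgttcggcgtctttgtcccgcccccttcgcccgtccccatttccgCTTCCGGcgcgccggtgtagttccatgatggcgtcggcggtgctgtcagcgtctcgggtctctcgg
Atp5k: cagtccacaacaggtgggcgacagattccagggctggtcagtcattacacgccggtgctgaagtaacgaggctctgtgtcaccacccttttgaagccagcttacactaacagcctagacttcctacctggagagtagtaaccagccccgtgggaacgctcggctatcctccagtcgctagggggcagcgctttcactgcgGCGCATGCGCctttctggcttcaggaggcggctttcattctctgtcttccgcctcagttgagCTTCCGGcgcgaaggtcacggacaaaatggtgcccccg
Uqcrh: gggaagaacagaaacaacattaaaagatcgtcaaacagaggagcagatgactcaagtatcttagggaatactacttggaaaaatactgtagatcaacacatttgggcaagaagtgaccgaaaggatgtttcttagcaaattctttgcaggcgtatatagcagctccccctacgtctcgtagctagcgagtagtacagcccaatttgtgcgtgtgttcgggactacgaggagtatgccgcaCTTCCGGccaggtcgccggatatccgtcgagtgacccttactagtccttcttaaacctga
Uqcrc1: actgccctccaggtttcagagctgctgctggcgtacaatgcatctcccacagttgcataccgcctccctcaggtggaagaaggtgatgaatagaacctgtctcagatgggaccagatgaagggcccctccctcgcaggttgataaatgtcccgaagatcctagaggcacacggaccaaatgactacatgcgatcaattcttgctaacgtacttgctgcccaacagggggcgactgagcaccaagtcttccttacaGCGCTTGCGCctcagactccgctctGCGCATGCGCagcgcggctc
These windows were picked with the calls known, so a contrast between them is not a test. The ETS letters lie within 20 bases of the annotated start in the 3 lower genes shown and are absent from the Uqcrc1 window. Of the 22 lower genes with a window 10 held ETS letters, and only 2 higher genes had a window. The same NRF1 string as in Uqcrc1, gcgcatgcgc, occurs in Cox6a1 and Atp5k.

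Counting limits touched some members. The reads carry no strand, and 8 members overlap a protein-coding gene on the other strand, among them Cox4i1 with Emc8, Atp5f1 with Wdr77 and Atp5j with Gabpa. The 5 pseudogenes named after members held 12 counts over all libraries. Reads with more than 1 alignment, 13.4 to 14.7% of the table in cluster KO and 16.1 to 16.8% in wildtype, are not assigned to genes, so losses of a short gene to near-identical copies cannot be seen. Complex I, taken as 36 tested genes named Nduf, had 28 lower and 1 higher with a median of -0.64, beside the median of -0.67 in complexes II to V.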

How the data were processed

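Bulk RNA-seq of mouse bone marrow was analysed in 3 cluster KO and 3 wildtype libraries, grouped by their titles. The authors deposited raw HTSeq read counts per Ensembl gene, after bcl2fastq and TopHat2 on build mm10, per the submitters' processing notes; the notes give no versions or counting options. Counts were used as deposited. The 5 HTSeq summary rows, 23.4 to 30.8% of the table by library, entered neither library sizes nor tests. Libraries held 17663369 to 23459168 gene counts. Of 47729 identifiers 47310 were named by GENCODE M21 (GRCm38), with older Atp5 names matched.

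All genes were fitted with edgeR 4.0.16 in R 4.3.3: filterByExpr (minimum count 10), TMM scaling, robust quasi-likelihood F-test, cluster KO against wildtype, Benjamini-Hochberg threshold 0.05 over 15686 genes. The fit was tested on simulated data, drawn with the same dispersion for every gene. It missed many of the smaller true changes there, so a gene that did not pass may still have changed. Alternatives were DESeq2 1.42.0, other scalings, no filter, loess offsets for transcript length and GC (span 0.3), a term for replicate number, and each library left out. Named genes were the 3 of smallest p in each complex, every member called higher, the catalytic core and every member that did not pass; others were added after their values were seen. The members and gene lists were chosen with earlier results of these data known. Counting errors and exact permutation tests (two-sided) cover 3 libraries a group only.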

Additional observations from a re-analysis of the deposited data

How the results depend on the processing

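With length and GC trends removed, 3 members were higher and the medians were -0.44 for all members, -0.03 for complex II, -0.43 for complex III and -0.44 for complex V; complex II had 1 gene lower, complex V had 0 higher, and Sdhb was at -0.19. Same-numbered libraries did not deviate together (correlations from -0.1114 to 0.01466), so the block is given here and otherwise enters only the ranges over all alternatives. Under the block 865 of all genes were lower and 1331 higher, with 2 members higher, 1 of them in complex III and 0 in complex V, and 12 pathway genes lower and 6 higher. With the block and length and GC trends removed together, 935 genes were lower and 857 higher, 1 member was higher, with 0 in complex III and 0 in complex V, 12 pathway genes were lower and 2 higher, the medians were -0.44, -0.03, -0.43 and -0.44 in the order above, and Sdhb was at -0.19; Cox5a, Cox8a and Ndufa4 also missed the threshold there (edgeR adjusted p = 0.0672, 0.0581 and 0.0595). Upper-quartile scaling, which moved the median of all genes by -0.103, gave a complex II median of 0.06, 1 gene higher in complex V and Sdhb at -0.04. Atp5c1, never called, was at 0.02 with DESeq2, 0.00 with median-of-ratios size factors and 0.02 with no filter on low counts. The Atp5g3 share difference was -0.181 points with median transcript lengths. Of the pathway genes, only those called and Coq2, Coq3, Coq7, Cox10, Cox15, Gabpa, Nrf1 and Tfam were followed gene by gene. The sign changes given here and in the next paragraph cover those genes alone. Pathway genes that changed sign, none of them called where they did, were Coq2 (-0.28; -0.27 with the block), Cox15 (0.09 in both), Gabpa (-0.04 in both), Nrf1 (-0.30 in both) and Slc25a4 (-0.03 in both) with length and GC trends removed, and Gabpa at -0.02 with TMM without respiratory genes and -0.11 with upper-quartile scaling. The causes of these shifts were not tested.

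Leaving out 1 library at a time gave 742 to 2579 genes lower and 1258 to 3151 higher, 2 to 7 members higher (1 to 3 in complex III, 0 to 3 in complex V), 10 to 29 pathway genes lower and 5 to 15 higher, and Atp5c1 between -0.09 and 0.05. Some of the uncalled pathway genes that were followed crossed 0. They were Coq7 (-0.16 to 0.00), Cox15 (-0.15 to 0.09), Gabpa (-0.06 to 0.05) and Tfam (-0.08 to 0.02). Between 24 and 26 members stayed lower. Cyc1 was called higher without cluster KO 1 (edgeR adjusted p = 0.0259) or wildtype 1 (0.0235), and Atp5d without cluster KO 1 (0.048). DESeq2 called 26 members lower and 7 higher. Depth was not limiting for members, whose counting error was at most 2.47%; 3 libraries a group limit the ratios and shares.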
